A study of Mus musculus with 35 samples.

Results

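The flagellum of the sperm cell carries accessory structures that are found in no other cell, and the genes of 10 proteins known from them or made at the same time were followed here, namely Akap3, Akap4, Ropn1, Odf1, Odf2, Odf3, Odf4, Smcp, Oaz3 and Fscn3. They were taken as the gene rows of these names, and all 10 were found among the 24411 genes of the gene count tables. The samples came from adult mice of mixed C57Bl/6J and SV129 background in which exon 9 of Smg6 can be removed by Cre recombinase driven by the Neurogenin 3 promoter, which is active in male germ cells before meiosis. Smg6-cKO mice carried 2 floxed Smg6 alleles and the Cre transgene, and the controls (CTRL) were littermates without Cre that carried 2 floxed alleles or a floxed and a wild type allele. RNA-seq of poly(A) RNA was made from fractions enriched for pachytene spermatocytes (Spc) or round spermatids (RS), with 3 libraries per genotype and cell type, and total RNA of chromatoid bodies (CBs), isolated with an antibody against DDX4 from pools of mice, was sequenced in 4 CTRL and 3 cKO libraries. The series text describes both testes of a single mouse as the source of a cell sample, whereas the study's methods describe testes pooled from more animals.

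Pachytene spermatocytes are cells in meiotic prophase, and round spermatids are the haploid cells that follow. In elongating spermatids the axoneme is surrounded by the outer dense fibers, which in the midpiece are wrapped in turn by the mitochondrial sheath and in the principal piece by the fibrous sheath. Many mRNAs for these structures are made in round spermatids and stored until the proteins are needed, and the CB is an RNA-rich granule of the round spermatid cytoplasm. SMG6 is the endonuclease of nonsense-mediated RNA decay (NMD).

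Levels are given as CPM (a gene's count relative to the summed gene counts of its library), scaled with TMM factors over the 12 Spc and RS libraries together and over the 7 CB libraries on their own, so that CB levels are not compared with those of cells. A gene rose or fell where the adjusted p of edgeR's quasi-likelihood test (Benjamini-Hochberg over all genes tested) was at most 0.05, and was called where its log2 fold change was also at least 1.5 in size. Gene counts summed to 36419197 to 47355837 per Spc or RS library and to 2705277 to 12103906 per CB library. Smg6 itself stood at 109 to 172 CPM in CTRL Spc, 182 to 189 in cKO Spc, 143 to 235 in CTRL RS, 189.5 to 203 in cKO RS, 256 to 283 in CTRL CBs and 231 to 292 in cKO CBs. Since a count over the whole gene also takes the exons that remain, it does not check the removal of exon 9.

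Markers of other cells moved with the genotype. Among all genes tested, 14.1% fell and 14.0% rose in cKO Spc, and 34.3% fell and 38.4% rose in cKO RS. In cKO CBs 18.4% of genes fell, and 2547 of 14051 rose. The 9 late spermatid markers (the protamine and transition protein genes among them) all fell in cKO Spc, RS and CBs, with medians of -2.96, -4.73 and -2.70 on the log2 scale, and none was at 0 in any group. Their summed counts took 0.241% to 0.512% of gene counts in CTRL Spc, 0.0145% to 0.0664% in cKO Spc, 1.42% to 1.86% in CTRL RS and 0.0841% to 0.112% in cKO RS. In CBs they took 0.194% to 0.41% in CTRL and 0.0363% to 0.0501% in cKO. All 8 macrophage markers rose in cKO Spc and RS, where they took at most 0.00653% and 0.0342% of gene counts. Of 7 Leydig markers 3 rose in Spc, and all 6 that were tested rose in RS. Of 8 Sertoli markers 6 fell in Spc and 8 rose in RS. Of the 10 round spermatid markers, which are mainly genes of the acrosome, 1 fell in cKO Spc, 10 in RS and 8 in CBs, with medians of -0.76, -1.68 and -1.15. Their share went from 0.134% to 0.193% in CTRL Spc to 0.105% to 0.127% in cKO Spc, and from 0.335% to 0.355% in CTRL RS to 0.172% to 0.195% in cKO RS. In CBs 2 of 4 macrophage, 6 of 6 Leydig and 3 of 6 Sertoli markers tested rose. Of 10 spermatocyte markers 6 rose and 2 fell in RS, and of 8 spermatogonia markers 5 rose and 1 fell. The part of these cells in the values below was not tested. The spermatocyte markers took 0.237% to 0.292% of gene counts in CTRL Spc and 0.297% to 0.321% in cKO Spc, 0.0579% to 0.0664% in CTRL RS and 0.126% to 0.15% in cKO RS.

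In control mice the tail genes made up a larger share of the RNA in RS than in Spc. Together they took 1.69% to 1.88% of all gene counts in CTRL RS and 0.506% to 0.783% in CTRL Spc. In cKO RS their share was 0.511% to 0.548%, and in cKO Spc 0.316% to 0.411%. In bulk samples like these, fewer cells of a type and less RNA per cell cannot be told apart.

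**Figure D1:**
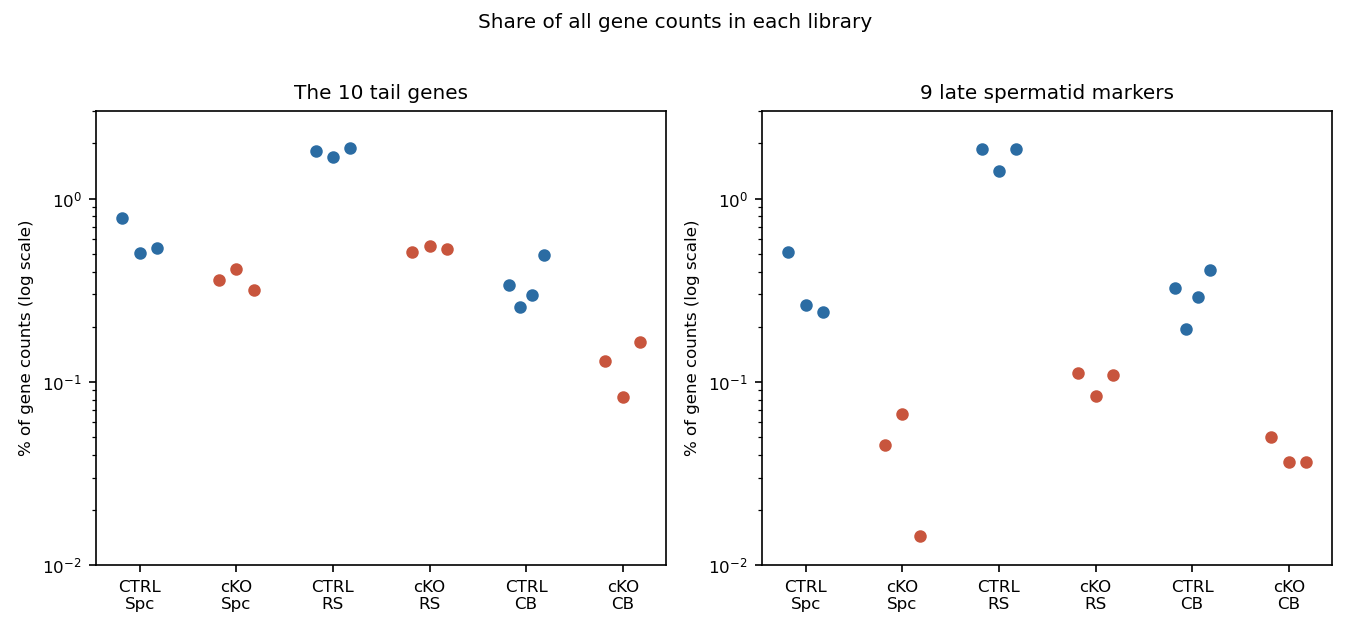
Share of all gene counts taken by the 10 tail genes (left) and by the 9 late spermatid markers (right), in percent on a log axis, with 1 point per library and groups of Spc, RS and CB libraries on the x axis (blue, CTRL; red, cKO). The tail genes took 1.69% to 1.88% in CTRL RS and 0.511% to 0.548% in cKO RS, and both sets of genes were lower in every cKO library than in any CTRL library of the same kind.

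In some groups most of the tail genes had their highest or lowest level in the same library. Replicate 1 of CTRL Spc was the highest of its group for 9 of the 10 genes (Odf4 was the exception) and also had the highest share of late spermatid markers, 0.512% against 0.262% and 0.241%. Replicate 3 of cKO Spc was the lowest of its group for all 10 genes, with 0.0145% of late spermatid markers against 0.0451% and 0.0664%. Replicate 2 was the lowest of CTRL Spc for all 10 genes and of CTRL RS for 9, and in cKO Spc it was the highest for 9. In cKO RS replicate 2 was the highest and replicate 1 the lowest for 7 genes each. In CBs library b was the lowest for 8 genes in CTRL and for 9 in cKO, while the highest library of cKO CBs differed between genes.

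The fibrous sheath genes come first. Akap4 (chrX:7067519-7078609 on GRCm38 in the GENCODE vM21 annotation, plus strand) encodes the main structural protein of the fibrous sheath, an anchoring protein for protein kinase A. Its levels in CTRL RS were 4008, 3577 and 4534 CPM and in cKO RS 492, 486 and 474 CPM. No cKO library came near a CTRL library, and the fitted difference was 8.27-fold (log2 fold change -3.05, SE 0.09, adjusted p = 2.2e-07). In Spc it stood at 979.6, 459.6 and 536 CPM in CTRL and at 273, 332 and 131 CPM in cKO, and the fit gave -1.54 on the log2 scale (SE 0.40, adjusted p = 0.031). These groups did not overlap either, though the CTRL libraries differed among themselves more than in RS. In CBs the 4 CTRL libraries held 241, 198, 374 and 515 CPM and the 3 cKO libraries 56.9, 46.0 and 68.6 CPM, again with no overlap (log2 fold change -2.53, SE 0.31, adjusted p = 0.00011).

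Akap3 (chr6:126853098-126874308, plus strand), a second scaffold of the same sheath, followed the pattern at a smaller size. CTRL RS held 2028, 2012 and 2313 CPM and cKO RS 446, 496 and 459 CPM (log2 fold change -2.17, SE 0.08, adjusted p = 3.4e-07). In Spc the CTRL libraries held 706, 369.7 and 411 CPM and the cKO libraries 247, 295 and 152 CPM, so that Akap3 fell without reaching the fold needed for a call (-1.21, SE 0.32, adjusted p = 0.031). Ropn1 (chr16:34649921-34678618, plus strand) encodes ropporin, which binds these anchoring proteins in the fibrous sheath. It stood at 577, 515 and 588 CPM in CTRL RS and at 100.5, 115 and 101 CPM in cKO RS, a 5.27-fold difference (-2.40, SE 0.08, adjusted p = 3.1e-07). In CBs Akap3 fell by 1.71 and Ropn1 by 1.53 on the log2 scale (adjusted p = 0.00012 and 0.00017 by edgeR), and neither had overlapping groups.

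The outer dense fiber genes were of 3 kinds. Odf1 (chr15:38219203-38226735, plus strand), which encodes a main protein of the fibers, fell far. It stood at 2526, 2068 and 2467 CPM in CTRL RS and at 168, 208 and 171 CPM in cKO RS, a 12.8-fold difference (log2 fold change -3.68, SE 0.12, adjusted p = 2.3e-07). In Spc CTRL libraries held 511, 256 and 279.8 CPM and cKO libraries 92.4, 129 and 49.5 CPM (-2.06, SE 0.41, adjusted p = 0.013). The groups did not overlap in either cell type, nor in CBs, where CTRL libraries held 199.98 to 304 CPM and cKO libraries 26.7 to 65.1 CPM (-2.60, SE 0.28, adjusted p = 5.1e-05). Odf3 (chr7:140847805-140851018, plus strand), known from the tail of elongated sperm, stood at 354, 376 and 371 CPM in CTRL RS and at 86.0, 114 and 77.4 CPM in cKO RS (-1.98, SE 0.14, adjusted p = 6.4e-06). It was the only member that did not pass the test in Spc, where 68.4 to 123 CPM in CTRL overlapped with 31.1 to 70.3 CPM in cKO (-0.94, SE 0.34, adjusted p = 0.076).

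Odf2 (chr2:29889221-29931746, plus strand) is also a centrosomal gene, whose protein forms appendages of the mother centriole in many cell types. In RS it dropped from 7524, 6855 and 8159 CPM in CTRL to 2198, 2449.7 and 2497 CPM in cKO (log2 fold change -1.64, SE 0.08, adjusted p = 1.4e-06). In Spc CTRL libraries held 3064, 2268 and 2275 CPM and cKO libraries 2091, 2075 and 1878 CPM, which did not overlap but lay close (-0.44, SE 0.13, adjusted p = 0.045). In CBs 984 to 2027 CPM in CTRL overlapped with 673 to 1288 CPM in cKO (-0.83, SE 0.30, adjusted p = 0.041). When single libraries were left out the log2 fold change was -0.68 to -1.19, and without CTRL library a, c or d or cKO library a or b the test was no longer passed (adjusted p from 0.067 to 0.14). It was also not passed with summed transcript counts (adjusted p = 0.067) or without the 2 CTRL libraries whose columns carry the letters MVH (adjusted p = 0.052).

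Odf4 (chr11:68921835-68927081, minus strand), the gene of a membrane protein of the sperm tail, went the other way. CTRL Spc libraries held 242, 238 and 243 CPM and cKO Spc libraries 523, 536 and 469 CPM, a 1.96-fold rise (log2 fold change 0.97, SE 0.07, adjusted p = 0.00046). In RS the levels were 364, 346 and 371 CPM in CTRL and 422, 487 and 455 CPM in cKO (0.35, SE 0.07, adjusted p = 0.0022). The groups did not overlap in Spc or RS. In CBs they did, with 91.5 to 121 CPM in CTRL and 100.4 to 157 CPM in cKO (0.27, SE 0.18, adjusted p = 0.26).

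Of the remaining genes, Smcp (chr3:92583867-92588997, minus strand) encodes a cysteine-rich protein of the mitochondrial capsule in the midpiece. It stood at 3382, 3023 and 3402 CPM in CTRL RS and at 212, 265 and 217 CPM in cKO RS, a 14.0-fold difference (log2 fold change -3.81, SE 0.11, adjusted p = 1.6e-07). In Spc the values were 686, 346 and 416 CPM in CTRL and 109.7, 170.0 and 62.9 CPM in cKO (-2.19, SE 0.41, adjusted p = 0.011). Oaz3 (chr3:94432414-94443915, minus strand) encodes the testis form of ornithine decarboxylase antizyme, a regulator of polyamine synthesis made in haploid germ cells. It dropped from 3451, 2865 and 3634 CPM in CTRL RS to 201, 234 and 206 CPM in cKO RS (-3.94, SE 0.11, adjusted p = 1.7e-07). Oaz3 overlaps Tdrkh and Mrpl9 on the opposite strand, and the counting of these tables is stated to use strand. Opposite-strand overlaps were also annotated for Fscn3 (Gcc1), Odf3 (Gm45785) and Odf2 (the snRNA gene Gm23865).

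Fscn3 (chr6:28427789-28438622, plus strand), a testis member of the fascin family of actin-bundling proteins, had the lowest level per kilobase in CTRL RS and the largest fold in RS of the 10 genes. CTRL RS libraries held 400.2, 337 and 456 CPM and cKO RS libraries 14.5, 11.8 and 14.1 CPM, a 29.3-fold difference (log2 fold change -4.87, SE 0.14, adjusted p = 1.9e-07), and Fscn3 ranked 36 from the lowest among the 17492 genes tested. In Spc CTRL libraries held 83.3, 35.8 and 37.8 CPM and cKO libraries 7.11, 11.04 and 1.48 CPM (-3.12, SE 0.70, adjusted p = 0.020), and without replicate 2 of cKO the log2 fold change was -3.75 (adjusted p = 0.021). In CBs the cKO values of 2.12, 1.84 and 3.75 CPM rested on 8, 4 and 21 counts, against 116 to 834 counts in CTRL.

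**Figure D2:**
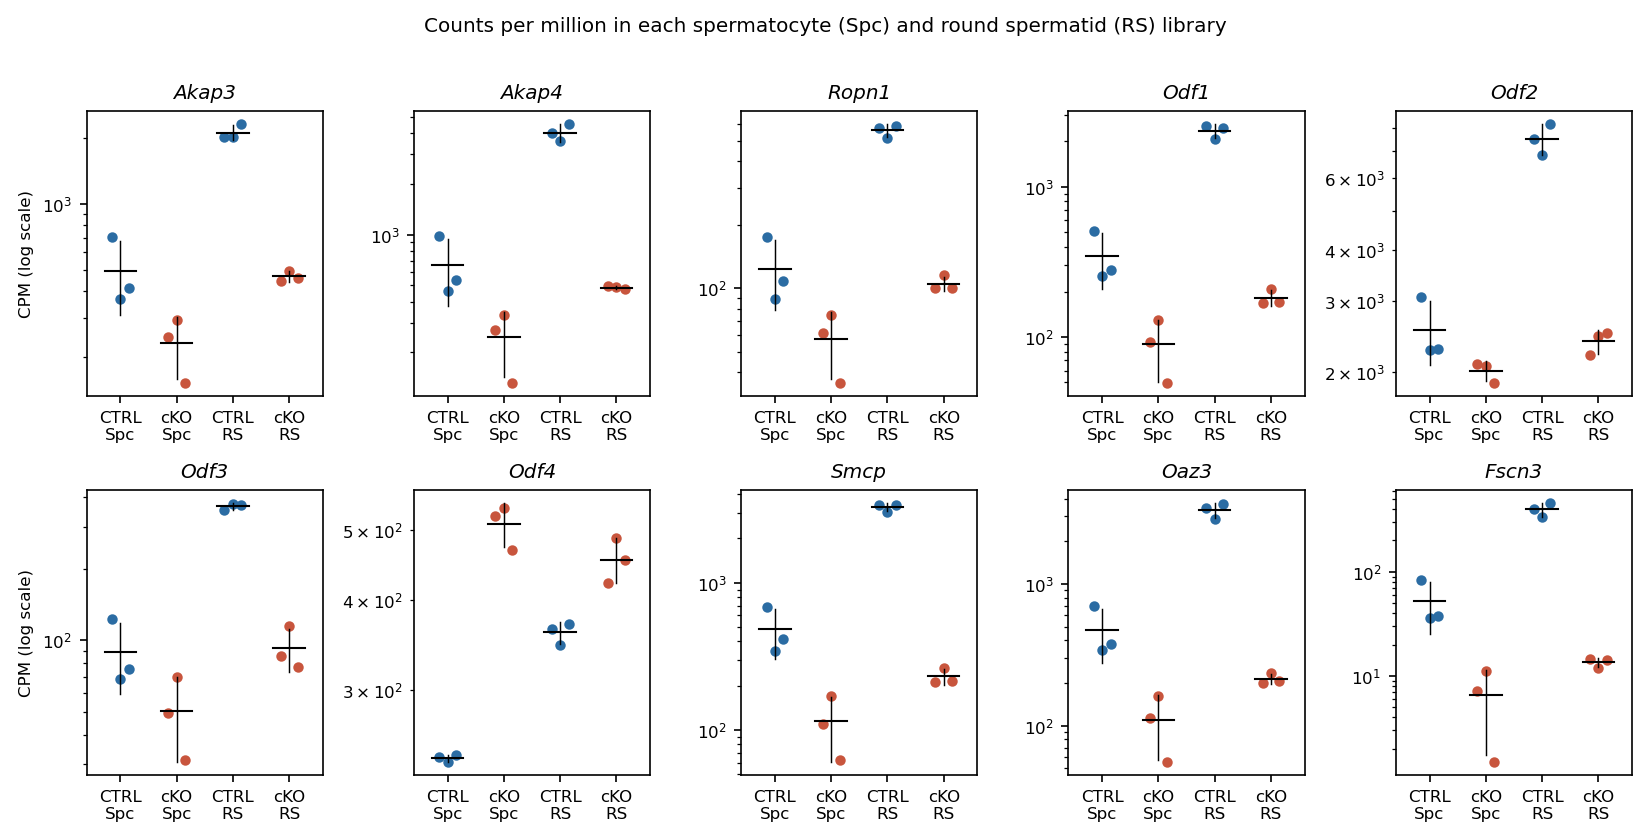
CPM of each tail gene (log axes that differ between panels) in the 12 Spc and RS libraries, with 1 point per library, horizontal lines at the mean and vertical lines over 1 SD to each side (n = 3 libraries per group; blue, CTRL; red, cKO). In every panel but that of Odf4 the CTRL RS libraries lie above all others, and Odf4 is lowest in CTRL Spc, at 238 to 243 CPM.

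As a group, 9 of the 10 genes fell in cKO RS and all 9 were called, where 34.3% of the genes tested fell and 11.6% were called lower. Odf4 rose, as did 38.4% of genes. In all 10 the groups did not overlap, which 36.9% of genes showed in the lower and 40.0% in the higher direction. The median log2 fold change of the 10 was -2.72, against 0.11 over all genes. Under other settings, library size scaling among them, Odf2 and Odf3 reached -1.02 and -1.36, short of a call, while both still fell. All 10 passed the filter on low counts in each comparison, with at least 75 counts in each Spc and RS library, and in CBs with at least 10 in each of the 7 libraries except for Fscn3, which reached 10 in the 4 CTRL and 1 of the cKO libraries.

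In cKO Spc 8 of the 10 fell (14.1% of genes did), 5 of these were called (5.10% of genes were called lower), and Odf4 rose (14.0% of genes did). The groups did not overlap for 9 of the 10, which 17.6% of genes showed in the lower and 30.7% in the higher direction. The called genes were Akap4, Odf1, Smcp, Oaz3 and Fscn3, and the median of the 10 was -1.38 (-0.01 over all genes). The number of passed tests moved when single libraries were left out, for the tail genes and over all genes. Without replicate 1 of cKO Spc the log2 fold changes of Odf1, Oaz3 and Fscn3 were -2.04, -2.20 and -3.15. Yet the edgeR count of members that fell was 0 and that of members called lower was 0. The 9 genes lower in cKO had adjusted p of 0.056 to 0.19 in that fit (edgeR). Over all genes 753 of 17120 fell there and 329 were called lower, against 2448 and 884 of 17321 with all libraries. Without replicate 3 of CTRL 4 members and 947 genes fell, without replicate 3 of cKO 4 members and 1265 genes, and without replicate 1 of CTRL 5 members and 2014 genes. With DESeq2 on all libraries, 9 members and 3164 genes fell.

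In cKO CBs Fscn3 passed the count filter only through the CTRL libraries, where it is high, and its difference there is a description. Of the other 9 genes, each with at least 10 counts in every CB library, 8 fell (18.4% of genes did) and 7 were called lower (5.64% of genes), with a median of -1.71 (0.07 over all genes). The groups did not overlap for those 7 genes, which 20.8% of genes showed in this direction. The calls of Odf3 (-1.51) and Ropn1 (-1.53) lay close to the threshold. Under other settings and with libraries left out their log2 fold changes reached -1.20 and -1.40, short of a call. Smcp fell by 2.85 and Oaz3 by 2.91 on the log2 scale (adjusted p = 2.8e-05 and 3.5e-05 by edgeR), from 280.3 to 439 CPM to 35.9 to 70.1 CPM and from 152 to 343 CPM to 23.9 to 37.3 CPM. Library d of CTRL was the highest of its group for 9 genes. The 2 CTRL libraries whose columns carry the letters MVH were also left out, after the data had been seen. Then 8 members and 1731 of 13305 genes fell, and 8 members and 654 genes were called lower. Fscn3 is among the members in both counts, and its difference is a description there too.

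**Figure D3:**
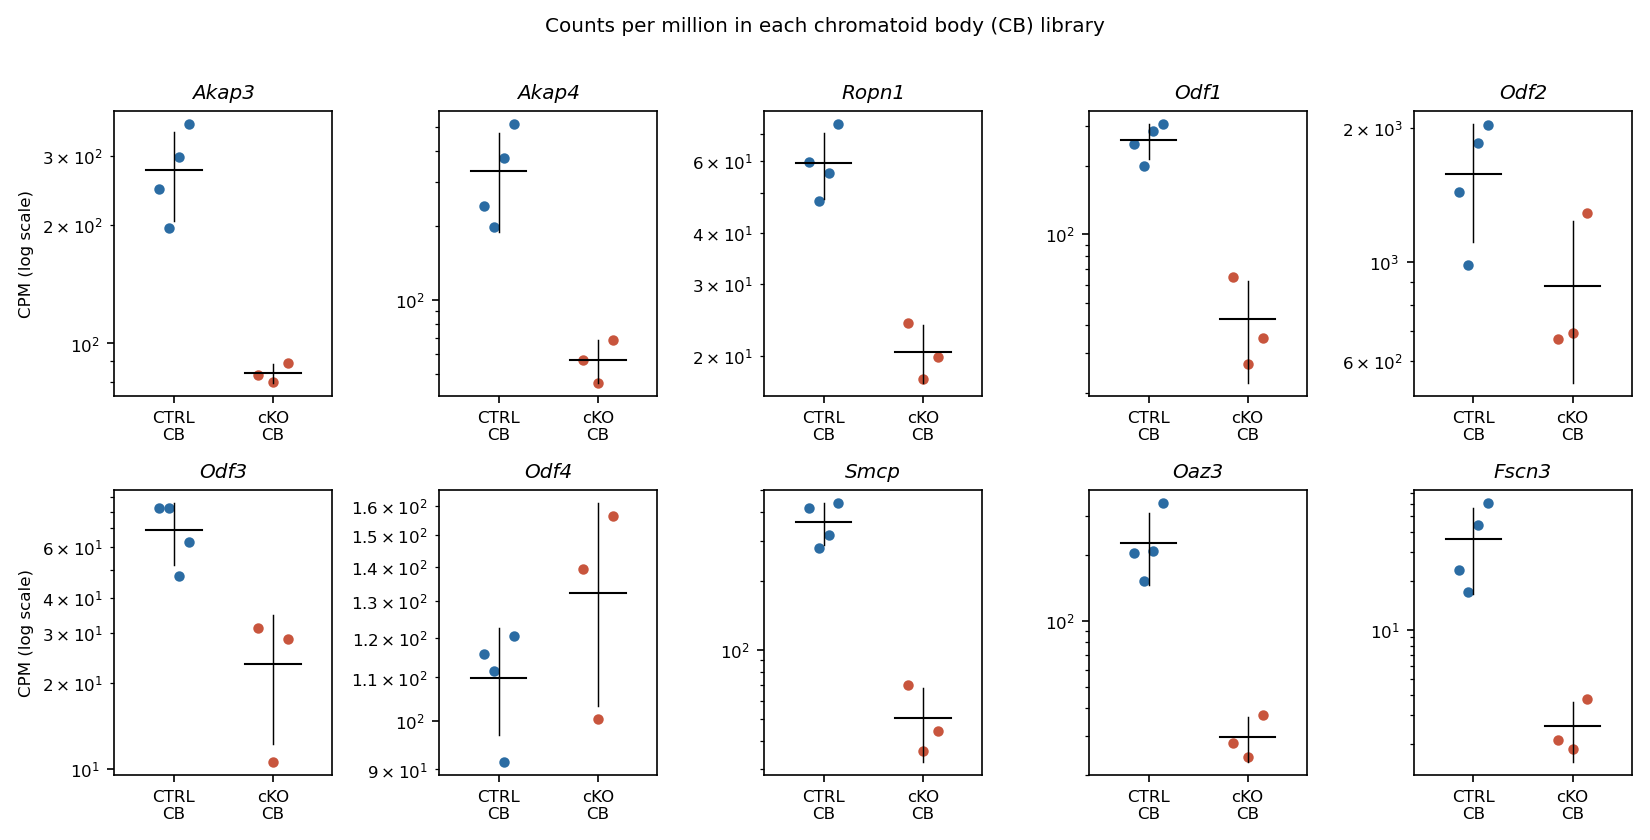
CPM of each tail gene (log axes that differ between panels) in the 4 CTRL (blue) and 3 cKO (red) CB libraries, with 1 point per library, horizontal lines at the mean and vertical lines over 1 SD to each side. The groups overlap in the panels of Odf2 and Odf4 and in no other, and Akap3 lies at 79.7 to 89.1 CPM in cKO against 197 to 361 CPM in CTRL.

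**Figure D4:**
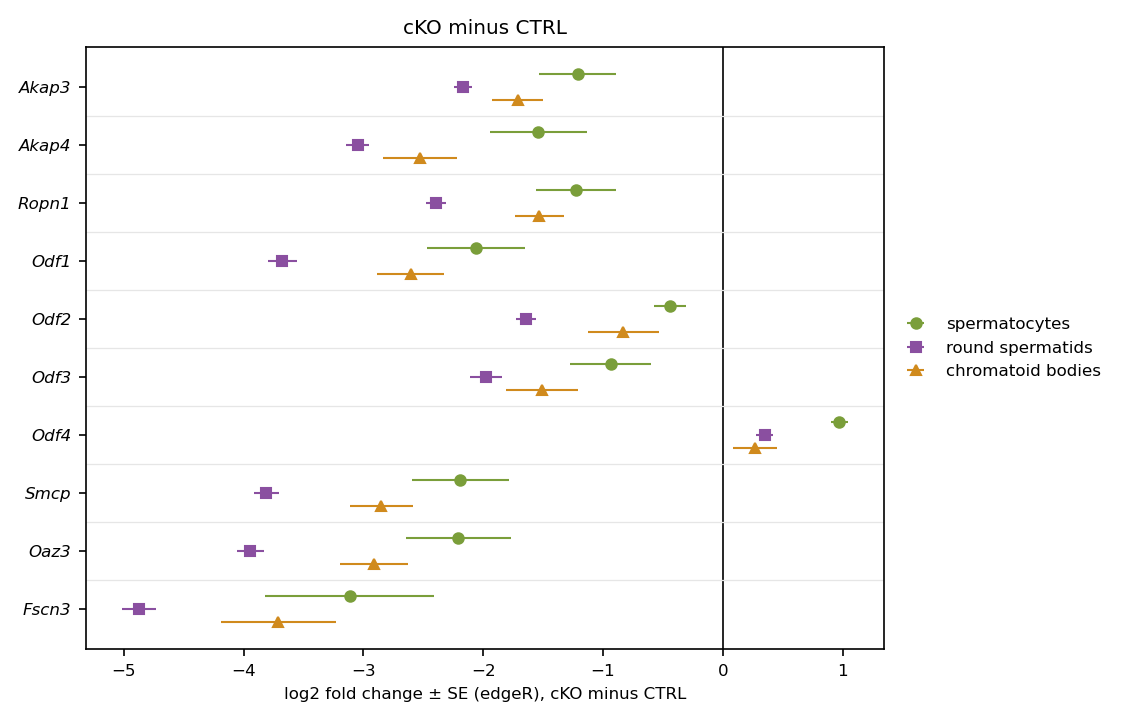
Log2 fold change (cKO minus CTRL) of each tail gene in Spc (circles), RS (squares) and CBs (triangles), with bars over 1 SE to each side, derived from the edgeR test. Odf4 is the only gene to the right of 0, and the RS value lies to the left of the Spc value for all 10 genes, from -4.87 for Fscn3 to 0.35 for Odf4.

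The question of how the tail genes differ between the meiotic and the haploid cells was asked within each genotype. In CTRL all 10 rose from Spc to RS (36.2% of genes did) and 8 were called higher (17.0% of genes), with a median of 2.26 (-0.08 over all genes). None of the 10 had overlapping groups, and 42.0% of genes had RS above Spc without overlap. The 8 lay between 1.91 for Odf3 and 2.79 for Fscn3 on the log2 scale, with adjusted p from 0.00018 to 0.00037 (edgeR). Odf2 rose by 1.43 (SE 0.14, adjusted p = 0.00019) and Odf4 by 0.45 (SE 0.06, adjusted p = 0.00063). The direction of Odf4 rested on the scaling, since it was -0.011 (adjusted p = 0.88) with library size in place of TMM factors.

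In cKO the step was smaller. Of the 10 genes 8 rose (18.9% of genes did) and none reached the fold of a call (3.27% of genes were called higher), with a median of 0.95 (0.01 over all genes). Akap3, Akap4, Ropn1, Odf1, Odf3, Smcp and Oaz3 lay within 0.86 to 1.00 on the log2 scale, where the same genes had 1.91 to 2.67 in CTRL. Odf2 rose by 0.22 (SE 0.07, adjusted p = 0.041). Fscn3 had 1.03 (SE 0.57, adjusted p = 0.17), which became 1.73 (adjusted p = 0.039) without replicate 2 of cKO Spc, and Odf4 had -0.19 (SE 0.08, adjusted p = 0.095). Every RS library of cKO lay above every Spc library for 9 of the 10 genes (27.7% of genes), Odf4 being the exception. The number of passed tests again moved with single libraries (3354 of all genes rose with all libraries). Without replicate 2 of cKO RS 1 member and 2602 genes rose, without replicate 1 of cKO Spc 2 members and 2321 genes, and without replicate 1 of cKO RS 3 members and 2786 genes.

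The difference between these steps was tested as the interaction of genotype and cell type over the 12 libraries, which sets the cKO effect in RS against that in Spc (RS minus Spc). Its TMM factors were computed over the 12 libraries, whereas the effects above came from fits of 6 libraries with their own factors, so that their difference need not equal the interaction. It was negative for all 10 genes and passed the test for 9 (adjusted p alone, edgeR), where it did so for 24.1% of genes. The lowest of the 9 was Oaz3 at -1.86 (SE 0.48, adjusted p = 0.010). Smcp and Odf1 had -1.74 each, Akap4 -1.64, Odf2 -1.33, Ropn1 -1.30, Odf3 -1.16, Akap3 -1.08 and Odf4 -0.74. Fscn3 had -1.88 with a larger error (SE 0.72, adjusted p = 0.055), and -1.05 (adjusted p = 0.35) without the libraries of replicate 2. Odf4 rose in both cell types, by less in RS (0.35) than in Spc (0.97), but with library size in place of TMM factors the rises were 0.97 and 1.00 and the interaction -0.036 (adjusted p = 0.74).

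The interaction depended on the scaling. With library size in place of TMM factors the median interaction over all genes moved from -0.13 to 0.58, 545 genes passed in the lower and 8087 in the higher direction (4375 and 3459 with TMM), and Odf2 (-0.62, adjusted p = 0.0015) was the only member to pass. The other 9 lay between -0.036 (Odf4) and -1.17 (Fscn3), with -0.38 for Akap3 and -0.46 for Odf3, and adjusted p from 0.052 to 0.74. For the cKO effect in RS the all-gene median went from 0.11 to 0.73 under that scaling, with 1080 genes called lower and 4991 higher (2021 and 2597 with TMM), and 7 members instead of 9 called lower. Between CTRL RS and Spc it moved the median from -0.08 to -0.54, with 4363 called lower and 1130 higher (2901 and 2895 with TMM), and between cKO RS and Spc from 0.01 to 0.16, where 3670 genes fell and 4480 rose (4684 and 3354 with TMM). In CBs 1012 genes were called lower and 639 higher (792 and 800 with TMM). Without the libraries of replicate 2 the interaction passed as lower for 3 members and 2275 of 17788 genes, against 4375 of 18171 with all libraries.

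**Figure D5:**
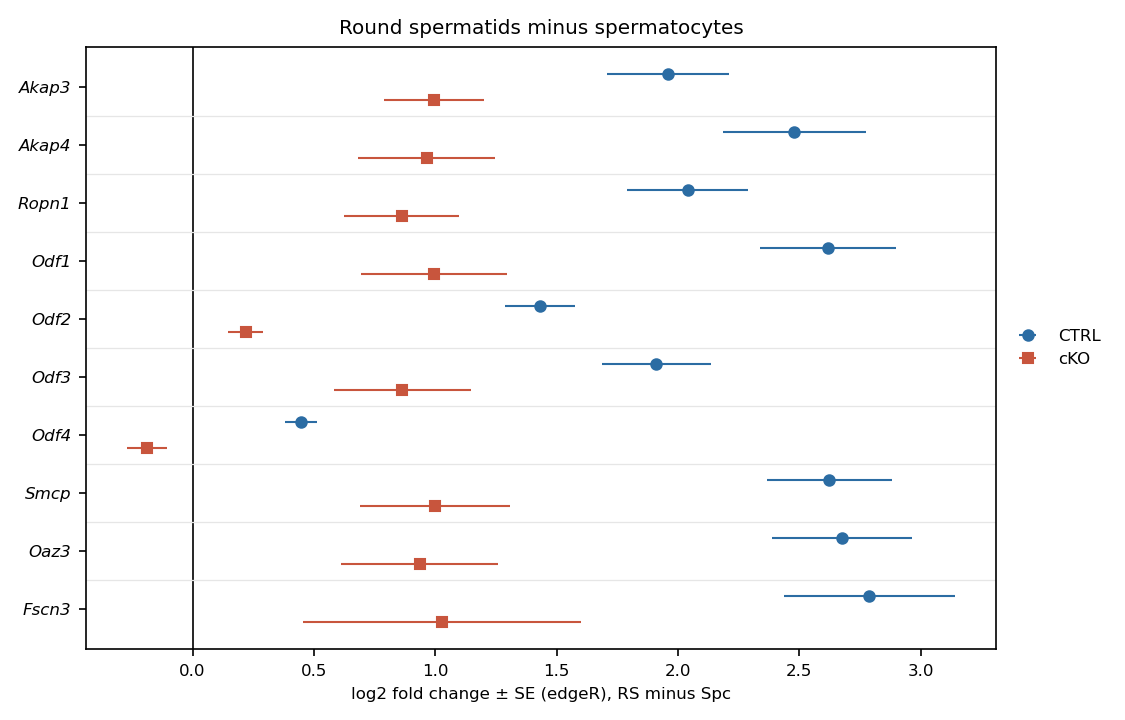
Log2 fold change from Spc to RS (RS minus Spc) of each tail gene in CTRL (blue circles) and cKO (red squares), with bars over 1 SE to each side, derived from the edgeR test. The CTRL values spread from 0.45 to 2.79, and 8 of the 10 cKO values lie between 0.86 and 1.03.

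Levels were compared between genes per kilobase of exon (CPM divided by the joined length of the gene's curated RefSeq exons). For Odf3 this length was 924 nt, while its transcripts in the GENCODE annotation have 1128 to 1629 nt. Its place in the order therefore depends on the length used. In CTRL RS the order began with Oaz3 (3491 ± 423, SD, n = 3) and Smcp (3485 ± 227), whose ranges overlapped. Odf1 followed at 2129.7 ± 225, clear of both neighbours, then Odf2 at 1566 ± 136 and Akap4 at 1346 ± 159.8, which overlapped. Akap3 (672 ± 53.6) and Ropn1 (664 ± 46.8) could not be told apart by their ranges, and Odf3 (397 ± 12.5), Odf4 (324 ± 11.4) and Fscn3 (222 ± 33.2) came last, each clear of the next. In cKO RS Odf2 (496 ± 33.6) and Odf4 (409.5 ± 29.7) came first and Oaz3 stood at 225 ± 18.7. The span from the highest to the lowest gene widened from 15.7-fold in CTRL RS to 66.0-fold in cKO RS, with Fscn3 at 7.52 ± 0.801 per kilobase. In CTRL Spc Odf2, Smcp and Oaz3 stood at 529 ± 95.4, 515 ± 192 and 497 ± 206 and overlapped.

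The genes most like the 10 were taken from outside the gene lists by the correlation of log2 CPM with the mean of the members' standardized levels over the 12 Spc and RS libraries, which share 4 groups, among 9065 genes. They were Slc16a7 (r = 0.998), Usp50, Cep112, Irgc1 and Rffl (r = 0.997 each). Slc16a7, a monocarboxylate transporter gene, averaged 308 CPM in CTRL Spc, 183 in cKO Spc, 1033 in CTRL RS and 286 in cKO RS. Of the members themselves, which are part of that mean, 9 had r from 0.956 (Fscn3) to 0.997 (Ropn1), and Odf4 had -0.24.

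Other genes of the tail were taken as 4 lists with 36 genes. Their falls are to be read against the shares of all genes that fell (34.3% in RS, 14.1% in Spc, 18.4% in CBs). In RS 11.6% of genes were called lower. Rises are to be read against 38.4% of genes in RS, 14.0% in Spc and 2547 of 14051 genes in CBs. Of the fibrous sheath list, 9 of 10 genes were tested (Fsip2 was not in the tables) and all 9 fell in cKO RS, with 4 called and a median of -1.33. Gapdhs, the sperm form of a glycolytic enzyme bound to the sheath, fell most (-3.43, adjusted p = 2.8e-07 by edgeR), and Aldoart1, an aldolase of spermatids, fell by 2.67 on the log2 scale. Of 7 outer dense fiber genes tested (Odf3l2 did not pass the count filter), 6 fell and 1 rose, with Odf3b at -4.18 and Spag5, a mitotic spindle gene, at 0.32. Of 7 connecting piece genes 6 fell (Pmfbp1, needed to join head and tail, by 2.47) and Cntrob, which encodes a centriolar protein, rose by 0.93. Of 11 genes of the mitochondrial sheath and annulus 9 fell, Spata19, a mitochondrial gene of spermatids, furthest at -2.83. The other 2 of that list rose, namely Slc25a31, an ADP/ATP carrier already used in meiosis (0.58), and Slc26a8, an anion transporter of the annulus (0.67). In cKO Spc 6, 2, 2 and 4 genes of the 4 lists fell, while Spag5 (0.26), Cntrob (0.49) and Slc26a8 (0.77) rose. In cKO CBs 7, 5, 4 and 8 fell, while Akap14, a fibrous sheath gene (0.64, adjusted p = 0.034), Cntrob (0.91, adjusted p = 0.0027) and Slc26a8 (0.63, adjusted p = 0.029) rose.

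At the transcript level the tables held 49 annotated transcripts of the 10 genes. In cKO RS 44 of them fell (36.0% of the 57133 transcripts tested did) and 4 rose (38.9% of all), all of them from Odf4. Since the counting divided a read among the transcripts that share its exon, transcripts of a gene carry much of the same signal and are not separate evidence. Of the 4 Odf4 transcripts, 2 have the NMD biotype in the annotation, and in Spc these had log2 fold changes of 0.97 and 0.98, against 0.97 and 1.05 for the protein-coding ones. In RS the 4 lay between 0.42 and 0.43. The third transcript of that biotype among the 49, ENSMUST00000184845 of Odf2, had -0.43 in Spc (adjusted p = 0.057) and fell in RS (-1.57, adjusted p = 5e-06). The transcript of the 49 that neither fell nor rose in cKO RS was ENSMUST00000152026, a short retained-intron transcript of Odf2 singled out after its values were seen (0.12, adjusted p = 0.43). It took 0.32% of Odf2 expected counts in CTRL Spc and 0.05% in CTRL RS, and it was also the only one of the 49 to fall from Spc to RS in CTRL (-1.18). Annotated 3' untranslated regions of protein-coding transcripts reached 1085 nt for Odf2 and were at most 240 nt for the other 9 genes.

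The promoters of the members were looked at because the cAMP response element is bound by CREM, an activator of many spermatid genes, and because most members moved together. RefSeq promoter sequences (GRCm38.p6, 250 bases before to 50 bases after a start) were held for 8 of the 10 genes, not for Odf1 and Oaz3. The full element TGACGTCA, which reads the same on both strands, was in none of the 8, and in 1.79% of 32851 promoters. Its first 5 letters, TGACG or CGTCA on the other strand, which every full element also contains, were found for Odf2 alone of the 8, against 20.8% of all promoters. The 2 matches of Odf2 lie on the plus strand, and the letters in capitals are the match.
Odf2, chr2:29889606-29889635, plus strand: cgcgtgtctcccTGACGacggggcggtgga
Odf2, chr2:29889681-29889710, plus strand: ggggcatctctgTGACGctgggggctgggc
They start 102 and 27 bases before the RefSeq start at 29889720, and 199 and 124 bases before that at 29889817. The letters TATAAA, or TTTATA on the other strand, were found for Fscn3 alone of the 8, and in 13.6% of all promoters. A match in letters is a description of the sequence and not of binding, and its absence speaks of these windows alone.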

How the data were processed

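Poly(A) RNA of 6 Spc and 6 RS samples and total RNA of 7 CB samples was sequenced. The authors trimmed reads with cutadapt, mapped them with STAR to GRCm38 and deposited raw counts per gene from TEtranscripts with reverse strand setting. Expected counts per transcript were deposited by the authors from featureCounts, in which a read on several transcripts is divided among them, and these were rounded to whole numbers here. The submitters' processing notes name cutadapt 2.8, STAR 2.7.1a and featureCounts 2.0.1, and the study's methods give other versions of STAR and featureCounts, so the version behind each table is not settled. In the gene tables the RS columns carry another trimming tag in their names than the Spc columns, a difference that the sources used here do not describe, while in the transcript tables they carry the same tag.

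Rows of repeats were left out. Genes with at least 10 counts in at least 3 libraries (transcripts, 20 counts) were tested with edgeR 4.0.16 in R 4.3.3 (TMM factors, two-sided quasi-likelihood tests, p adjusted after Benjamini and Hochberg over all genes tested), with only the libraries compared in each fit. The SE given is the size of the log2 fold change divided by the square root of the F statistic of that test. Genes of lists were named by passing the test or by size. The members and lists were chosen with earlier results of these data known. The series text calls the libraries biological replicates. An exact permutation test of 3 against 3 libraries cannot go below 0.1 and was not used. CB columns carry other numbers than the sample titles, so CB libraries were assigned to genotypes only and lettered. Alternatives were DESeq2 1.42.0, library size scaling, no count filter, summed transcript counts, a replicate block and leaving out single libraries. Figures and tables were made with Python 3.11.15, numpy 2.4.6, pandas 2.3.3 and matplotlib 3.10.9.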

Additional observations from a re-analysis of the deposited data

Results flagged for a closer look

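For 9 of the 10 tail genes the cKO effect differed between RS and Spc in the test of that difference itself (genotype by cell type interaction over 12 libraries, edgeR, adjusted over all genes), where 24.1% of all genes passed in this direction. With library size scaling Odf2 was the only one of the 10 to pass. On the log2 scale the differences were -1.08 for Akap3 (adjusted p = 0.029), -1.64 for Akap4 (0.013) and -1.30 for Ropn1 (0.017) among the fibrous sheath genes. Among the Odf genes they were -1.74 for Odf1 (0.010), -1.33 for Odf2 (0.00032), -1.16 for Odf3 (0.034) and -0.74 for Odf4 (0.0005). Smcp had -1.74 (0.0094) and Oaz3 -1.86 (0.010). Odf4 was higher in cKO in both cell types, and its value was -0.036 with library size scaling.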

How the results depend on the processing

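Of 640 values of single members under the alternatives, 565 kept their direction and side of the threshold, 69 no longer passed, 5 newly passed and 1 changed sign, namely Odf4 between CTRL RS and Spc with library size scaling (-0.011). With library size scaling 1 member and 545 of 18171 genes passed the interaction as lower, against 9 and 4375 with TMM. Leaving out single libraries, the members that fell in Spc numbered 0 to 8, with 0 to 5 called (all genes called, 329 to 1131). Those higher in cKO RS than Spc numbered 1 to 9 (all genes 2321 to 3967), with 0 to 1 called (477 to 1181). Those lower there numbered 0 to 1 (all genes 3216 to 4182). The interaction passed as lower for 3 to 8 members (all genes 1536 to 3165) when the libraries of a replicate number were left out. The cause was not tested, and over all genes the number that fell in Spc also dropped, to 753 at the lowest from 2448. In RS 9 fell in each such fit (all genes 5254 to 5875). In CBs 8 to 9 fell and 6 to 8 were called lower (all genes 2088 to 2783 and 690 to 1106). Fscn3 is among the members in both CB counts, where its difference is a description.

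Whether the replicate numbers of Spc and RS pair the samples could not be settled with 3 libraries per group. Deviations of same-numbered libraries correlated at -0.27 to 0.60, and not every library matched its own number best. Between cKO RS and cKO Spc replicates 2 and 3 did (0.60 and 0.33), and between CTRL RS and CTRL Spc none did. With the replicate block 8 members fell in Spc (2000 of 17321 genes), 9 in RS (5790 of 17492) and 9 passed the interaction as lower (4059 of 18171), while 10 rose from Spc to RS in CTRL (5730 of 17046) and 7 in cKO (4527 of 17709). With transcript counts summed per gene, whose RS and Spc columns carry the same trimming tag, 10 members rose from Spc to RS in CTRL (7290 of 20100 genes) and 8 in cKO (4352 of 20847), and 9 passed the interaction as lower (4014 of 21858). For CBs no paired analysis was possible because the CB columns carry other numbers than the labels of the CB samples. Over all genes DESeq2 gave 3164 lower and 2995 higher in Spc, against 2448 and 2431. Fscn3 in cKO CBs, with 4 to 21 counts, is the member that depth limits.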
